A study of Rattus norvegicus with 6 samples.

Results

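The genes described here are those of the cell cycle and of DNA replication, measured in primary astrocytes cultured from rat spinal cord. A list of 44 genes was looked up by platform gene symbol on the Rat Genome 230 2.0 array, and 41 of them had a probe set with that symbol alone, out of 14217 genes named in this way on the array. Those 41 were read by 57 probe sets, and each gene is represented by the probe set with the highest mean log2 signal over the arrays. Ndc80 and Tpx2 had no probe set under their symbols, and Rrm2 occurred only on 2 probe sets annotated with 2 symbols, so these 3 have no value here. The 41 comprise 13 genes of S phase and its start, 22 genes of G2 and mitosis, and 6 genes of G1: the D-type cyclins, Cdk4 and the inhibitors Cdkn1a and Cdkn1b.

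The study has 6 arrays: 3 from hSOD1G93A cultures (letters A, B and C in their titles) and 3 from NonTG cultures (also A, B and C). The hSOD1G93A rats carry a human superoxide dismutase 1 transgene with an amino acid change found in familial amyotrophic lateral sclerosis, and NonTG cultures lack it. Strain, age, sex, the number of animals per culture and the promoter of the transgene are not given in the sources used here. Both genotypes were grown to confluence and kept in supplemented L15 medium for 24 hours before RNA was taken, and 5 ug of total RNA was amplified for each array.

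Cells that divide pass from G1 into S phase, in which DNA is copied, and through G2 into mitosis. Cyclin D with Cdk4 and cyclin E with Cdk2 phosphorylate the retinoblastoma protein and free E2F factors, which turn on the replication genes; genes of mitosis are turned on later. Transcripts of replication and mitosis genes are low in resting cells, so in a culture of mixed cells their level follows the cycling cells. Astrocytes divide in culture and slow down as the layer becomes confluent. In RNA from whole cultures, fewer cycling cells and less RNA per cycling cell cannot be told apart.

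Signals are linear MAS5 intensities as the authors deposited them. Every difference between arrays or groups is given in log2 units, so that 1 is 2-fold. All 41 genes passed the filter on dim probe sets (a mean signal above 66.7), as did 10473 genes in all. The correlation of log2 signals between arrays ranged from 0.967 to 0.985, with the highest value between hSOD1G93A A and NonTG A. The probe set of rat Sod1 does not check the human transgene, and it had signals of 9781 to 10860 in hSOD1G93A and 8855 to 9430 in NonTG.

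Most genes of S phase and of mitosis were higher on the A arrays than on the C arrays in both genotypes, though 1 of these 35 passed the adjusted test of the letters. Of the 35 genes, 30 had both A arrays above both C arrays, against 23.1% of all genes tested. NonTG A was the highest array for 24 of the 35 (15.7% of all genes) and NonTG C the lowest for 28 (18.2%). Both A arrays were above both B arrays for 14 of the 35 (22.9%), and both B arrays above both C arrays for 20 (21.1%). Of the 6 G1 genes 2 had both A arrays above both C arrays, with a median A minus C difference of 0.042 against 0.48 for S phase and 0.66 for mitosis. The median over all genes tested was -0.0041.

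**Figure D1:**
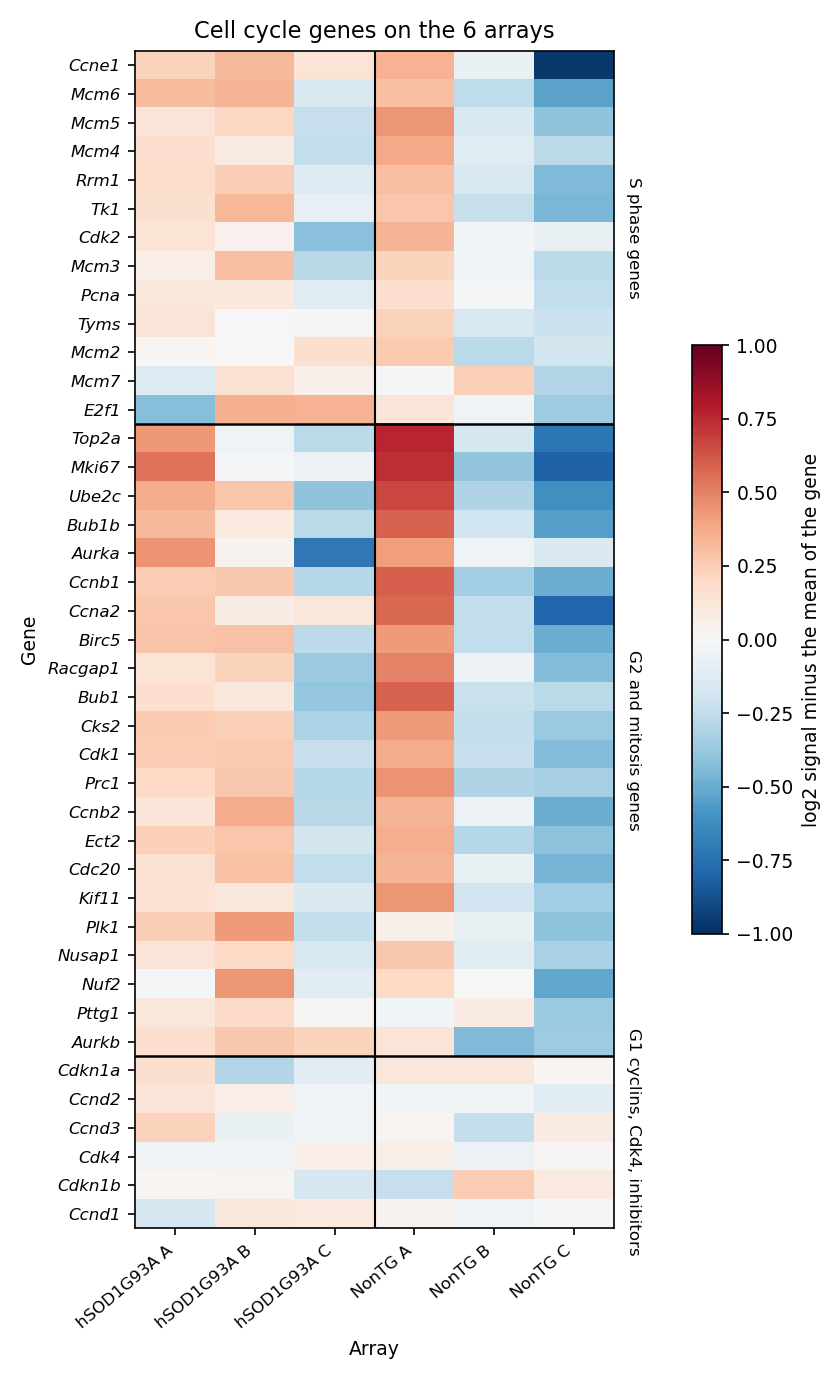
Heat map of the 41 genes (rows, sorted within each group by the A minus C difference) on the 6 arrays (columns, hSOD1G93A left of NonTG). Colour gives the log2 signal minus the mean of that gene over the 6 arrays, from -1 (blue) to 1 (red). The A columns are red and the C columns blue for most S phase and mitosis genes, and the G1 rows at the bottom are pale.

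In the comparison of genotypes, hSOD1G93A with NonTG, none of the 41 genes passed the threshold of an adjusted p of 0.05 in limma. Over all 18625 probe sets tested limma also called 0 (0%), with 474 at an unadjusted p below 0.05 (2.54%). Among the 41 genes 34 had a positive mean difference, where 51% of all genes tested did. Their median difference was 0.12, against 0.0030 over all genes tested. Aurkb alone, 1 of 41, had an unadjusted p below 0.05, as did 2.64% of all genes tested. The smallest adjusted p of the 41 was 0.9997 in this limma fit, which has no term for the letter. It was 0.834 in the fit that blocks on letter.

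The median of 0.12 depended on single arrays. It was 0.31 without NonTG A and 0.25 without hSOD1G93A C, and it was -0.017 without NonTG C. Without hSOD1G93A A it was 0.075, and without hSOD1G93A B and NonTG B it was 0.052 each. The 95% intervals of single genes reached from -0.78 at the lowest to 1.12 at the highest.

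**Figure D2:**
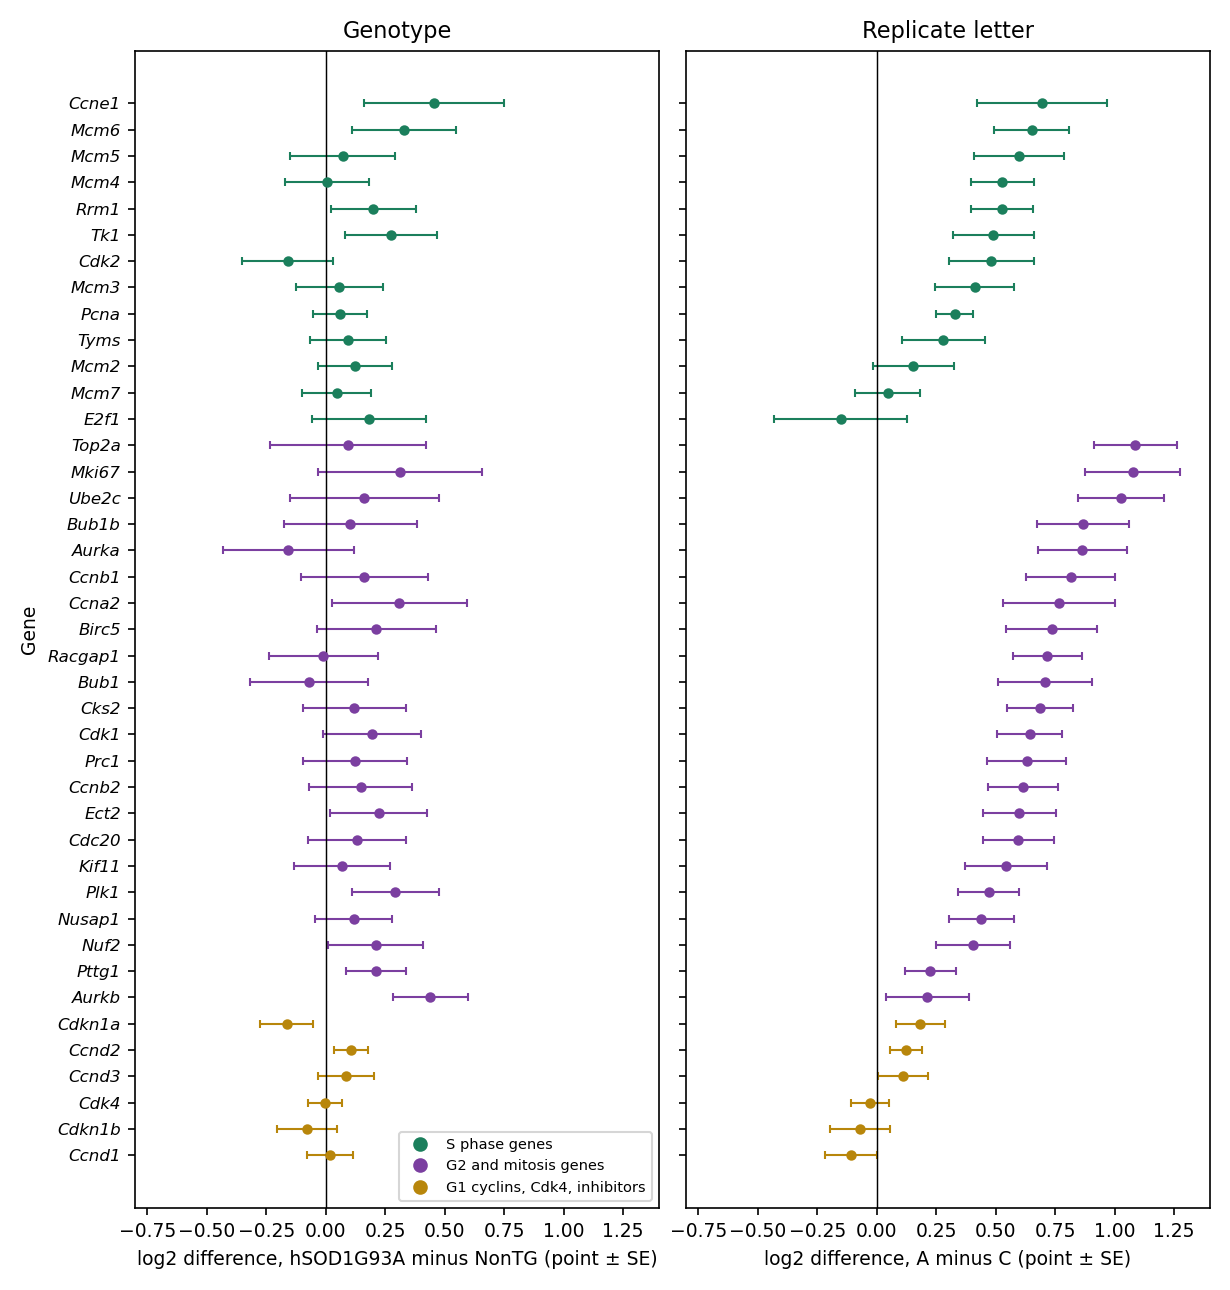
log2 differences of the 41 genes with their standard errors from limma. The left panel gives hSOD1G93A minus NonTG and the right panel A minus C with genotype in the model, on the same scale. Genotype differences lie between -0.16 and 0.46, while the right panel reaches 1.09, with all 22 mitosis genes above 0.

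Among the S phase genes 12 of 13 had a positive genotype difference and 0 passed the test, with a median of 0.094 and a range of -0.16 to 0.46. Ccne1, the cyclin that acts with Cdk2 at entry into S phase, had signals of 278, 299 and 262 in hSOD1G93A A, B and C, against 303, 228 and 122 in NonTG A, B and C. Its difference was 0.46 (SE 0.29), and NonTG C stood below the other 5 arrays. Cdk2 itself had signals of 342, 321 and 234 in hSOD1G93A, against 394, 306 and 296 in NonTG, a difference of -0.16 (SE 0.19). The groups of both genes overlapped. E2f1, a transcription factor that activates replication genes, had 188, 323 and 322 in hSOD1G93A and 275, 247 and 197 in NonTG. Its order of arrays differed from that of the replication genes, with hSOD1G93A A the lowest, and its A minus C difference was -0.15 (SE 0.28).

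The Mcm proteins form the ring-shaped helicase that unwinds DNA at replication origins. Mcm6 had signals of 771, 784 and 557 in hSOD1G93A, against 763, 520 and 428 in NonTG. Its genotype difference was 0.33 (SE 0.22), with overlapping groups, and its A minus C difference was 0.65 (SE 0.16), or 1.57-fold. Both C arrays were below both A arrays, and NonTG C was the lowest. Mcm5 had 406, 428 and 317 in hSOD1G93A and 504, 335 and 282 in NonTG, and Mcm4 had 926, 869 and 695 in hSOD1G93A and 1069, 757 and 684 in NonTG. Their A minus C differences were 0.60 (SE 0.19) and 0.53 (SE 0.13). Mcm3 had the same direction, with 453, 534 and 357 in hSOD1G93A and 505, 420 and 362 in NonTG. In Mcm2 and Mcm7 the A and C arrays overlapped: Mcm2 had 518, 513 and 571 in hSOD1G93A against 615, 425 and 451 in NonTG, and Mcm7 had 987, 1204 and 1125 in hSOD1G93A against 1075, 1279 and 884 in NonTG. Both B arrays of Mcm7 lay above the other 4 arrays, and both B arrays of Mcm2 lay below both A arrays. Thus 4 of the 6 Mcm genes had both A arrays above both C arrays, against 23.1% of all genes tested.

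The other S phase genes make nucleotides or serve the replication fork. Pcna, the sliding clamp of the DNA polymerases, had signals of 6488, 6445 and 5504 in hSOD1G93A, against 6759, 5940 and 5060 in NonTG. Its A minus C difference was small and precise, 0.33 (SE 0.077), and its genotype difference was 0.060 (SE 0.11). Rrm1, the large subunit of ribonucleotide reductase, had 2032, 2123 and 1637 in hSOD1G93A and 2210, 1599 and 1319 in NonTG. In hSOD1G93A only the C array was low, whereas in NonTG both B and C were low. Tk1, the thymidine kinase of S phase, had the same layout with 670, 753 and 565 in hSOD1G93A and 726, 509 and 436 in NonTG. Tyms, which makes thymidylate, ranged from 309 to 336 in hSOD1G93A and from 266 to 362 in NonTG, and its groups overlapped.

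Among the genes of G2 and mitosis 19 of 22 had a positive genotype difference, with a median of 0.15 and a range of -0.16 to 0.44, and 0 passed the test. Aurkb was the exception among the 41 in that the 2 genotypes did not overlap, as for 3.73% of all genes tested in this direction. None of the 41 was lower without overlap (3.79% of all genes), so the count in either direction was also 1 (7.52%). Aurkb is the kinase of the chromosomal passenger complex, which corrects attachments of chromosomes to the spindle. It had signals of 623, 669 and 650 in hSOD1G93A, against 609, 410 and 435 in NonTG. The difference was 0.44 (SE 0.16, 95% interval 0.086 to 0.79), with an unadjusted p of 0.0203 and an adjusted p of 0.9997 in limma. Within letter A the 2 arrays were nearly equal, a difference of 0.034, against 0.71 in B and 0.58 in C. Its partner in that complex, Birc5 (survivin), did not share this layout: it had 437, 439 and 299 in hSOD1G93A and 481, 302 and 254 in NonTG, and a genotype difference of 0.21 (SE 0.25).

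Plk1 and Pttg1 were higher in hSOD1G93A within all 3 letters, though the groups overlapped when the letters were ignored. Plk1, a mitotic kinase, had signals of 980, 1109 and 702 in hSOD1G93A, against 855, 783 and 621 in NonTG, with within-letter differences of 0.20, 0.50 and 0.18. Pttg1 (securin), the inhibitor of separase that is destroyed at anaphase, had 1630, 1724 and 1520 in hSOD1G93A and 1483, 1594 and 1165 in NonTG. Their differences were 0.29 (SE 0.18) and 0.21 (SE 0.12). With the letter as a block limma gave an unadjusted p below 0.05 for 4 of the 41 genes, against 5.85% of all probe sets tested. These were Aurkb (0.0126), Plk1 (0.0207), Mcm6 (0.0297) and Pttg1 (0.0385), each with an adjusted p of 0.834. In all, 5 of the 41 genes were higher in hSOD1G93A within each letter, against 13.1% of all genes tested.

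The cyclins and Cdk1 start mitosis. Ccnb1, the main mitotic cyclin, had signals of 1440, 1454 and 992 in hSOD1G93A, against 1821, 952 and 854 in NonTG. NonTG A was the highest array and NonTG C the lowest, 2.13-fold apart. Ccnb2 had 1460, 1743 and 1112 in hSOD1G93A and 1701, 1289 and 953 in NonTG. Ccna2, the cyclin of S phase and G2, had 757, 658 and 677 in hSOD1G93A and 933, 527 and 361 in NonTG. Cdk1, the kinase that these cyclins activate, had 1984, 1994 and 1420 in hSOD1G93A and 2154, 1416 and 1233 in NonTG. Cks2, which binds Cdk1, had 2706, 2668 and 1810 in hSOD1G93A and 3032, 1915 and 1751 in NonTG. In hSOD1G93A the B array was close to or above the A array for Ccnb1, Ccnb2, Cdk1 and Cks2, while in NonTG the B array was below the A array for all 5 genes.

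Top2a, the topoisomerase that untangles sister chromatids, passed the test of the letters. Its signals were 1052, 762 and 652 in hSOD1G93A A, B and C, against 1323, 689 and 473 in NonTG A, B and C. In both genotypes A was the highest and C the lowest, and the A minus C difference was 1.09 (SE 0.17), or 2.13-fold. The F test of the 3 letters in limma gave an adjusted p of 0.0449, and over all probe sets 195 of 18625 passed (1.05%). Top2a was the 1 of 41 members that passed. A further Top2a probe set had 639, 439 and 283 in hSOD1G93A and 734, 408 and 189 in NonTG, an A minus C difference of 1.56 (SE 0.19) and an adjusted p of 0.0169. The call of the first probe set ended after quantile normalization (adjusted p of 0.0630), with no filter on dim probe sets (0.0645) and with no intensity trend in limma (0.349). With no intensity trend limma called 0 of the 18625 probe sets for the letters, with 2271 at an unadjusted p below 0.05.

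**Figure D3:**
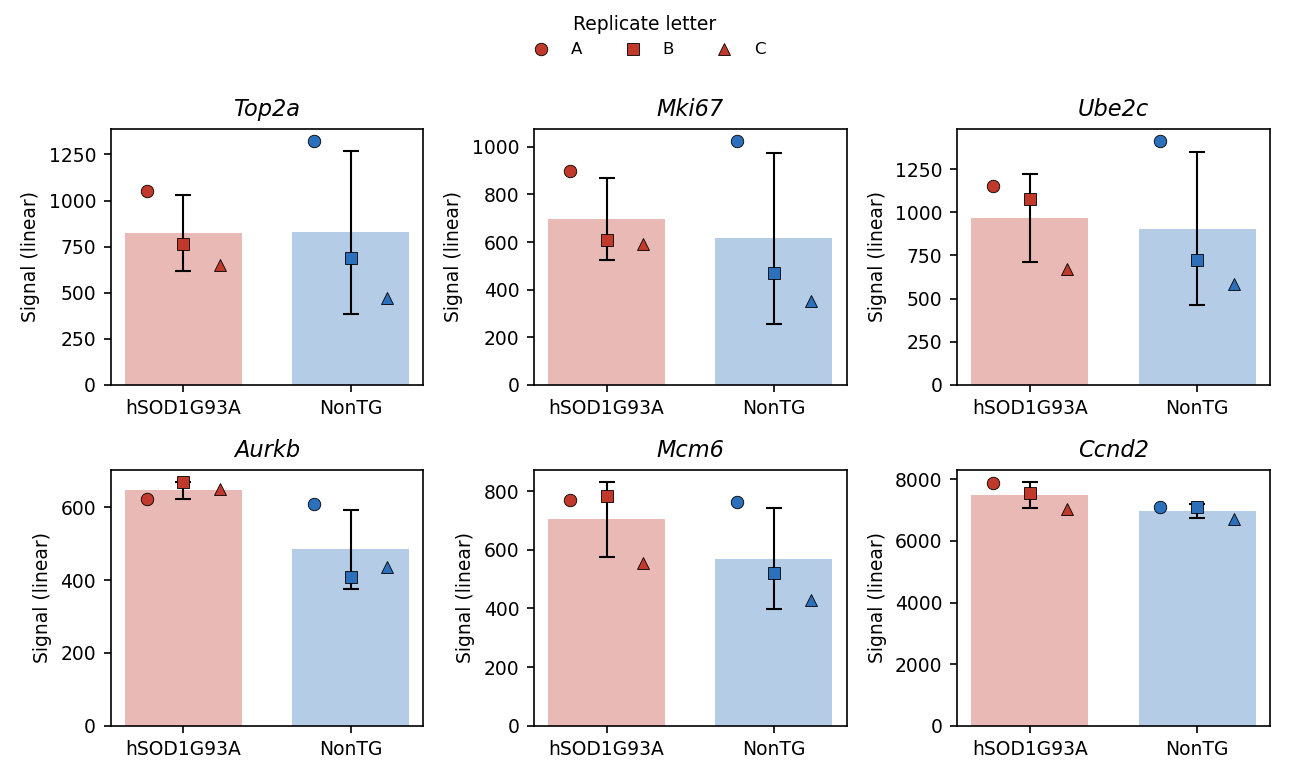
Linear signals of 6 genes. Bars give the mean and whiskers the SD of the 3 arrays of a genotype, hSOD1G93A left of NonTG, and points give single arrays with a marker for each letter (circle A, square B, triangle C). Top2a, Mki67, Ube2c and Mcm6 spread by letter within each genotype, Aurkb has its 3 hSOD1G93A arrays above its 3 NonTG arrays, and Ccnd2 varies little.

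Mki67 and Ube2c came next. Mki67, which encodes the proliferation antigen Ki-67, had signals of 897, 607 and 590 in hSOD1G93A, against 1025, 469 and 351 in NonTG. Ube2c, a ubiquitin-conjugating enzyme that works with the anaphase-promoting complex, had 1150, 1077 and 672 in hSOD1G93A, against 1413, 722 and 582 in NonTG. The A minus C differences were 1.08 (SE 0.20) and 1.03 (SE 0.18), or 2.11-fold and 2.04-fold. Neither passed the adjusted test of the letters in limma (0.0651 and 0.0661). Over its 6 arrays Mki67 spanned 2.92-fold, the widest span of the 41.

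At an unadjusted p below 0.05 the letter test counted 27 of the 41 genes, against 16.5% of all genes tested. These were 21 of the 22 mitosis genes, 6 of the 13 S phase genes and 0 of the 6 G1 genes. The 1 mitosis gene outside this count was Aurkb. The number of members past the adjusted threshold was 1 with all arrays. With 1 array left out, 1 letter rests on a single array, so only differences are given here for such fits. Without NonTG A the median A minus C difference was 0.40 for mitosis and 0.25 for S phase, against 0.66 and 0.48 with all arrays. Without hSOD1G93A A these medians were 0.89 and 0.57.

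Bub1b, Bub1, Cdc20, Nuf2 and Aurka had both A arrays above both C arrays, and none of these 5 passed the adjusted letter test in limma (0.122 to 0.229). Bub1b and Bub1, kinases of the checkpoint that delays anaphase, had A minus C differences of 0.87 (SE 0.19) and 0.71 (SE 0.20). Bub1b had signals of 401, 343 and 266 in hSOD1G93A, against 481, 280 and 219 in NonTG. Cdc20, the activator of the anaphase-promoting complex that this checkpoint holds back, had 899, 994 and 685 in hSOD1G93A and 1025, 770 and 589 in NonTG. Nuf2, a kinetochore protein that binds spindle microtubules, had 1249, 1715 and 1170 in hSOD1G93A and 1450, 1266 and 883 in NonTG, with hSOD1G93A B the highest. Aurka, a kinase of the centrosome, had 542, 406 and 242 in hSOD1G93A and 531, 386 and 359 in NonTG. Its lowest array was hSOD1G93A C, as for Bub1, and its genotype difference was -0.16 (SE 0.28).

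Genes of the spindle and of cell division had A minus C differences of 0.44 to 0.72. Racgap1, part of the complex that builds the midzone of the spindle, had signals of 1508, 1600 and 1066 in hSOD1G93A, against 1943, 1329 and 1017 in NonTG, the largest A minus C difference of this group (0.72, SE 0.14). Ect2, which Racgap1 recruits to start furrow formation, had 1407, 1442 and 1048 in hSOD1G93A and 1533, 976 and 895 in NonTG. Prc1, which bundles midzone microtubules, had 1940, 2042 and 1393 in hSOD1G93A and 2313, 1371 and 1344 in NonTG. Kif11, the motor that separates the spindle poles, and Nusap1, which binds spindle microtubules, had 0.54 (SE 0.17) and 0.44 (SE 0.14). In these 5 genes both A arrays lay above both C arrays.

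Among the G1 genes Cdk4, Ccnd2 and Ccnd1 spanned less over the 6 arrays (1.09-fold to 1.21-fold) than the median gene tested (1.36-fold). Cdkn1a, Ccnd3 and Cdkn1b spanned slightly more (1.37-fold to 1.41-fold). Ccnd2 had signals of 7885, 7562 and 7049 in hSOD1G93A, against 7105, 7101 and 6705 in NonTG, a genotype difference of 0.10 (SE 0.071). Ccnd1 had 1715, 2077 and 2061 in hSOD1G93A and 1973, 1871 and 1911 in NonTG, and Ccnd3 had 2336, 1903 and 1934 in hSOD1G93A and 2030, 1683 and 2103 in NonTG. The low Ccnd1 span is that of its brightest probe set. A dimmer Ccnd1 probe set had 1000, 1042 and 1178 in hSOD1G93A and 886, 1220 and 1174 in NonTG. Both its A arrays lay below its B and C arrays, with an A minus C difference of -0.32 (SE 0.12). In the dimmest Ccnd1 probe set that difference was 0.028 (SE 0.13). Cdk4, the kinase of the D-type cyclins, ranged from 4212 to 4531 in hSOD1G93A and from 4152 to 4492 in NonTG, the narrowest span of the 41 at 1.09-fold. Cdkn1a (p21), an inhibitor induced by p53, had 6959, 5068 and 5760 in hSOD1G93A and 6736, 6734 and 6310 in NonTG. Its difference was -0.16 (SE 0.11), with hSOD1G93A B the lowest and hSOD1G93A A the highest of the 6 arrays. Cdkn1b (p27), which holds cyclin E and Cdk2 inactive in resting cells, had 2828, 2837 and 2475 in hSOD1G93A and 2366, 3328 and 2975 in NonTG. Here NonTG A, the highest array for most mitosis genes, was the lowest. In a dimmer Cdkn1b probe set NonTG A was instead the highest (132, against 88 to 118 on the other arrays). None of the 6 G1 genes passed either test.

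Taking S phase against mitosis, the mitosis genes spanned more. The median span over the 6 arrays was 1.86-fold for mitosis, 1.67-fold for S phase and 1.29-fold for G1, against 1.36-fold over all genes tested. Of the 22 mitosis genes 17 had an A minus C difference above the S phase median, and 1 of the 13 S phase genes had one above the mitosis median. Each gene was next set to its own mean over the arrays. The median log2 value of the mitosis genes on this scale was 0.24, 0.25 and -0.25 in hSOD1G93A A, B and C, and 0.42, -0.21 and -0.43 in NonTG A, B and C. For S phase it was 0.13, 0.21 and -0.12 in hSOD1G93A and 0.28, -0.12 and -0.29 in NonTG. Both groups of genes thus put the arrays in the same order by these medians, with the B arrays apart by genotype. From the top it was NonTG A, hSOD1G93A B, hSOD1G93A A, NonTG B, hSOD1G93A C and NonTG C. For mitosis hSOD1G93A B and A were nearly tied (0.251 and 0.244). The further mitosis genes described below gave another order, with hSOD1G93A A (0.26) above B (0.13) and hSOD1G93A C (-0.19) above NonTG B (-0.24). The further S phase genes did likewise (0.14 above 0.067, and -0.083 above -0.14). The mitosis value minus the S phase value was 0.11, 0.046 and -0.13 in hSOD1G93A and 0.15, -0.089 and -0.14 in NonTG. By genotype the mitosis median of differences exceeded the S phase median by 0.061. The single-array values just given had an SD between arrays of 0.14, which is not a standard error of that excess. The excess was -0.036 without NonTG C and -0.039 without hSOD1G93A A.

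**Figure D4:**
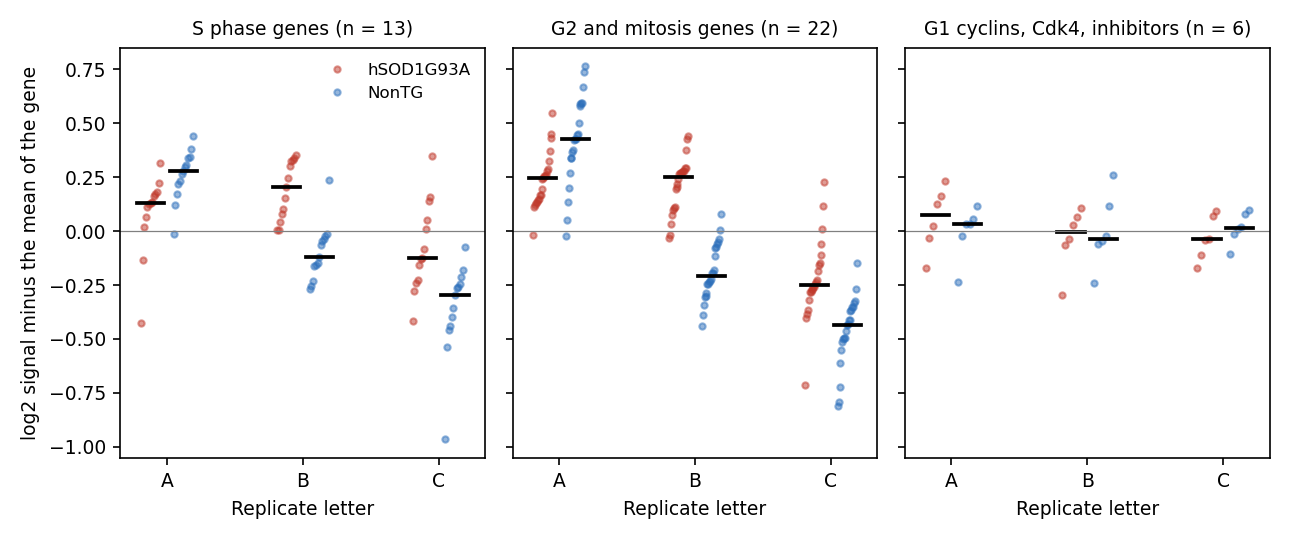
log2 signal of each gene minus its mean over the 6 arrays, by replicate letter (x axis) and genotype (hSOD1G93A red and left, NonTG blue and right), for 13 S phase genes, 22 genes of G2 and mitosis and 6 G1 genes. Points are genes and black lines are medians. For mitosis hSOD1G93A lies under NonTG at A (0.24 against 0.42) and above it at B (0.25 against -0.21) and C (-0.25 against -0.43).

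Within the letters the genotype difference did not keep one direction. In letter A hSOD1G93A was lower for 30 of the 35 S phase and mitosis genes (50.5% of all genes tested), with a median difference of -0.19. In letter B it was higher for 34 of the 35 (51%), with a median of 0.37, and in letter C for 31 of the 35 (49.9%), with a median of 0.22. The full layout, lower in A and higher in B and C, was present in 26 of the 35 and in 17.1% of all genes tested. With 1 array for each genotype and letter the difference between letters in the genotype effect has no replicate, and it was not tested.

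Of the 41 genes, 11 had 2 or more tested probe sets. In 9 of these all probe sets gave the A minus C difference the same sign, the exceptions being Ccnd1 and Cdkn1b. In 8 of them the genotype difference kept one sign, the exceptions being Ccnd1, Cdc20 and Racgap1. The second Ccnb1 probe set had 1247, 1547 and 787 in hSOD1G93A and 1238, 791 and 488 in NonTG, an A minus C difference of 1.00. The second Tk1 probe set had 472, 533 and 356 in hSOD1G93A and 457, 332 and 202 in NonTG, a difference of 0.79.

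Because the S phase and mitosis genes varied together across the arrays, their promoters were searched for 3 short motifs. RefSeq promoter sequences (build GRCr8) were matched by Entrez identifier for 33 of the 41 genes, and the 250 bases before the annotated start were searched on both strands. The E2F motif was taken as TTCCCGC or TTCGCGC or TTGGCGC or TTGCCGC, and a match on one strand can overlap one on the other. The CCAAT box, bound by NF-Y, was CCAAT, and the cell cycle homology region (CHR), through which the MuvB complexes act on mitosis genes, was TTTGAA. The E2F motif was present in 7 of 11 S phase promoters and 4 of 18 mitosis promoters, against 13.9% of 9795 promoters of the genes tested and 7.59% of all 33469 promoters. The CHR was present in 1 of 11 S phase promoters and 10 of 18 mitosis promoters, against 10.2% of the promoters of genes tested and 16.2% of all. The CCAAT box was present in 7 of 11 and 14 of 18, against 35.7% and 34.0%. Of the 4 G1 promoters 0 held an E2F motif, 0 a CHR and 2 a CCAAT box. A match describes letters only, and binding was not measured.

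The 140 bases before the start of 5 promoters show examples of both groups, chosen after the matches were seen: Top2a, Cdk1 and Ccnb2 for mitosis, with a CCAAT box and a CHR, and Mcm6 and Mcm5 for S phase, with E2F motifs and CCAAT boxes and no CHR. Cdk1 and Ccnb2 also hold an E2F motif. Each is written 5′ to 3′ on the strand of the gene, with matches to the motifs in capitals on either strand (ATTGG is the CCAAT box and TTCAAA the CHR read on the opposite strand).
Top2a (chr10:84473094-84473233, minus strand): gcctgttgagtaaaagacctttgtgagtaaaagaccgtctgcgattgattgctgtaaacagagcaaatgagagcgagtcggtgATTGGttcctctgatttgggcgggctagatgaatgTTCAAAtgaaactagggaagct
Cdk1 (chr20:19265153-19265292, plus strand): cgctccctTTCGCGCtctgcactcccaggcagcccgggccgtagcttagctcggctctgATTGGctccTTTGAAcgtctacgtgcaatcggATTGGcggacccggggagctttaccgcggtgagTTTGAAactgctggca
Ccnb2 (chr8:79981659-79981798, minus strand): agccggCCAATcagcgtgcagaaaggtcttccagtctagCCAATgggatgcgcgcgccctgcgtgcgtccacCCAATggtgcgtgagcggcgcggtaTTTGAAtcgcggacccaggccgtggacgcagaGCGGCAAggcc
Mcm6 (chr13:42404353-42404492, minus strand): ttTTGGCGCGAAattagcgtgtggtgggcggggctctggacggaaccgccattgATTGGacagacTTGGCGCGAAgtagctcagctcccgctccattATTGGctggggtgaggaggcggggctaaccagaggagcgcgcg
Mcm5 (chr19:13488673-13488812, plus strand): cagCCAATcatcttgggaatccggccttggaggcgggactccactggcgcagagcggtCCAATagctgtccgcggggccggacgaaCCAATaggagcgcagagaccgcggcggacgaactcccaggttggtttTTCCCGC
In Mcm6 each TTGGCGCGAA is an E2F motif on both strands, TTGGCGC on the strand of the gene and TTCGCGC on the other, overlapping by 4 bases.

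**Figure D5:**
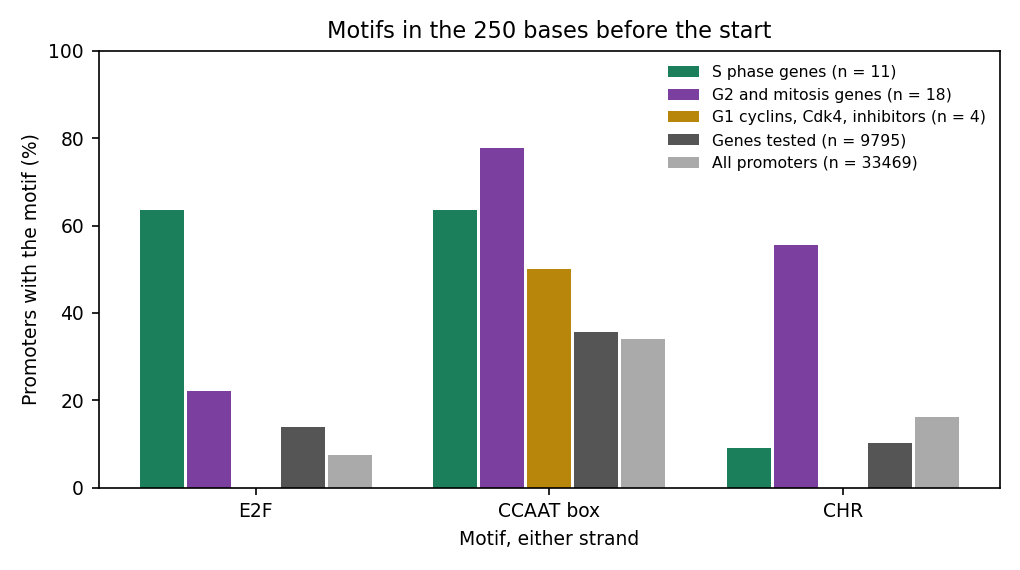
Share of promoters, in percent, that hold the E2F motif, the CCAAT box or the CHR on either strand in the 250 bases before the start, for the S phase, mitosis and G1 genes, for the promoters of all genes tested and for all promoters. The E2F bar is tallest for S phase (7 of 11) and the CHR bar for mitosis (10 of 18), and the G1 genes have no bar for either.

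Further cell cycle genes came from lists of 31 S phase, 40 mitosis and 19 G1 and checkpoint genes that are not among the 44. Those of mitosis gave similar A minus C differences. Of 31 such mitosis genes tested, 26 had both A arrays above both C arrays, against 23.1% of all genes tested. Their median A minus C difference was 0.67, and 3 passed the adjusted letter test in limma (1.09% of all genes tested). These were Kif23, a motor of the spindle midzone (1.19, SE 0.16, adjusted p of 0.0213), Cenpf, a kinetochore protein (1.00, SE 0.16, 0.0385), and Tacc3, which binds spindle microtubules (0.91, SE 0.14, 0.0426). Kif23 had signals of 910, 692 and 448 in hSOD1G93A, against 1049, 537 and 409 in NonTG, and A was the highest and C the lowest array in both genotypes. Of 25 further S phase genes tested 16 had both A arrays above both C arrays (23.1% of all genes tested). Their median was 0.33, and 0 passed the adjusted test. Uhrf1, a factor for maintenance of DNA methylation, had 352, 228 and 308 in hSOD1G93A, against 575, 214 and 217 in NonTG, and NonTG A was the highest array. By genotype 0 of these 72 further genes passed the adjusted test.

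Of the 16 further G1 and checkpoint genes tested, 10 had both A arrays above both C arrays (23.1% of all genes tested). In 4 both A arrays were below both C arrays (23.5%), and the median A minus C difference was 0.090. The adjusted letter test in limma was passed by 1 of the 16 (1.09% of all genes tested). This was Gadd45a (adjusted p of 0.0493), with A below C. Gadd45a, which is induced by DNA damage and growth arrest, had signals of 2971, 4272 and 4254 in hSOD1G93A, against 3248, 4660 and 3947 in NonTG, an A minus C difference of -0.40 (SE 0.088). Both A arrays lay below the other 4. Cdkn2c, an inhibitor of Cdk4 and Cdk6, had both A arrays above the other 4, with 1019, 970 and 721 in hSOD1G93A and 1134, 628 and 672 in NonTG. Ccng2, a cyclin of resting cells, had 759, 774 and 994 in hSOD1G93A and 1125, 969 and 1301 in NonTG. Its genotype difference was -0.43 (SE 0.15), with an unadjusted p of 0.0161 and an adjusted p of 0.9997 in limma.

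Markers of other cell types that could divide in such cultures were set beside these values. Astrocyte markers (all 8 with a probe set above the filter) summed to 87131 to 103575 in hSOD1G93A and 92485 to 104271 in NonTG. The sum was lowest in hSOD1G93A A and NonTG A, arrays in which most mitosis genes were high. Mitosis genes were also high in hSOD1G93A B (median centred log2 value of 0.25), where the astrocyte sum was the highest of its genotype (103575). In NonTG C, where they were lowest (-0.43), the astrocyte sum of 93411 was close to that of NonTG A (92485). Of 9 microglia markers 2 were above the filter, and Aif1, Cx3cr1, Itgam, Csf1r, Cd68, Ptprc and Tyrobp were below it (summed signal of 357 to 532 in hSOD1G93A and 339 to 509 in NonTG). Oligodendrocyte lineage markers, 6 of 10 above the filter with Olig2, Sox10, Cspg4 and Mog below it, summed to 5801 to 7691 in hSOD1G93A and 5283 to 5898 in NonTG, with hSOD1G93A B the highest and NonTG C the lowest. Of 3 endothelial markers Kdr alone was above the filter, and its centred log2 value ran from 0.99 in hSOD1G93A B to -1.09 in NonTG C. Fibroblast and meningeal markers (7 of 7 above the filter) summed to 53439 to 75168 in hSOD1G93A and 71412 to 75934 in NonTG, and pericyte and smooth muscle markers (6 of 6) to 15680 to 25640 in hSOD1G93A and 21326 to 26351 in NonTG, both lowest in hSOD1G93A B. The fibroblast and meningeal sum was highest in the A array of each genotype. Of these 7 markers 3 had both A arrays above both C arrays, against 23.1% of all genes tested. The adjusted letter test in limma was passed by 2 of these 7 (smallest adjusted p of 0.0312), against 1.09% of all genes tested. It was also passed by 1 of the 6 oligodendrocyte lineage markers (0.0191), whose A minus C difference was 1.39. Of the 6 pericyte and smooth muscle markers 1 passed it (0.0433). Neuron markers (5 of 6) summed to 673 to 938 in hSOD1G93A and 653 to 1262 in NonTG. The ratio of 3′ to 5′ signal, which reflects RNA integrity, was 0.996 to 1.01 for Gapdh in hSOD1G93A and 0.954 to 1.01 in NonTG, and 1.10 to 1.14 for actin in hSOD1G93A and 1.13 to 1.19 in NonTG. The part of these values in the letter differences was not tested.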

How the data were processed

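RNA samples labelled as 6 separate samples were hybridised to Affymetrix Rat Genome 230 2.0 arrays. The deposited intensity values, 1 per probe set and array, are on a linear scale. Per the submitters' processing notes the authors used GCOS 1.4 and MAS5. The design text names GC-RMA in ArrayAssist 4.0 and log values, which these are not; a mean that omits the outer 2% on each side was 500.2 on every array. Of 31042 probe sets that were not controls, 20826 had 1 symbol, 436 several and 9780 none. Log2 was taken with no pseudocount. Probe sets with a mean log2 value at or below the 40th percentile were left out, which left 18625. Genotype was tested in limma 3.58.1 (R 4.3.3; lmFit, eBayes with an intensity trend, two-sided, Benjamini-Hochberg over all probe sets tested). The letters were tested with an F test in a model with genotype. The steps were tested on simulated data. Any of the 41 genes could be named; of each further cell cycle list, the 4 genes with the smallest letter p and the 2 with the smallest genotype p could be, and of cell type lists members by count and range only, with those below the filter and Kdr named after their values were seen. Members, lists and tests were chosen with earlier results of these data known. Alternatives were quantile normalization, other filters, a pseudocount, array weights, no trend, blocks and leaving out each array.

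The letters occur in both genotypes, and deviations from the group means correlated between same-letter arrays at 0.30 (A), 0.25 (B) and 0.20 (C). The correlation was -0.28 to 0.025 between different letters. Deviations of a group cancel over its letters, so these values are partly fixed by the centring. On the same-letter values, the letters were taken to pair the arrays in the fits that block on letter. The main genotype test has no term for the letter, so its standard errors and intervals include the spread between letters. The labels do not say what a letter marks, nor whether each array had its own animal or culture. The p-values therefore reflect the spread between these arrays, which may be technical. The number of arrays limits the precision, with a median standard error of 0.16 for a genotype difference.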

Additional observations from a re-analysis of the deposited data

How the results depend on the processing

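The genotype test called 0 probe sets in limma with each of the alternatives run, which included the replicate block (0 called, smallest adjusted p of 0.151), the block with an estimated correlation (0.0915), array weights (0.234) and leaving out each array. The replicate block moved the count at an unadjusted p below 0.05 to 1090, against 474 without it, and changed no call. The count of probe sets past the letter test, 195, was 110 with no filter on dim probe sets, 0 with no intensity trend (2271 at an unadjusted p below 0.05) and 341 to 1009 with 1 array left out, a fit with 1 residual degree of freedom in which 1 letter has a single array that is assumed to vary like the others. The medians of the member differences moved by less than the SD between arrays under every alternative that gave one. That SD (0.29 over all members, 0.24 for S phase, 0.37 for mitosis) is larger than the medians themselves. Even a change of sign stays within it, so it says little about stability. Leaving out 1 array gave -0.017 to 0.31 over all members, 0.011 to 0.29 for S phase and -0.025 to 0.39 for mitosis. The genotype difference changed sign for Mcm3 with array weights (-0.024), for Mcm4 after quantile normalization (-0.0054) and with array weights (-0.034), and for Cdk4 in the same settings (0.0072 and 0.030). With 1 array left out it changed sign for 25 of the 41 genes: Pcna (-0.048 to 0.16), Mcm3 (-0.079 to 0.21), Mcm4 (-0.13 to 0.20), Mcm5 (-0.11 to 0.31), Mcm7 (-0.090 to 0.18), Cdk2 (-0.27 to 0.0079), Ccna2 (-0.011 to 0.67), Ccnb1 (-0.045 to 0.50), Ccnb2 (-0.066 to 0.35), Cks2 (-0.033 to 0.36), Aurka (-0.42 to 0.16), Cdc20 (-0.065 to 0.33), Ube2c (-0.10 to 0.54), Bub1 (-0.22 to 0.21), Bub1b (-0.15 to 0.42), Kif11 (-0.091 to 0.31), Nusap1 (-0.017 to 0.28), Prc1 (-0.011 to 0.38), Racgap1 (-0.23 to 0.24), Top2a (-0.25 to 0.50), Mki67 (-0.017 to 0.76), Ccnd1 (-0.029 to 0.11), Ccnd3 (-0.012 to 0.15), Cdk4 (-0.038 to 0.024) and Cdkn1b (-0.22 to 0.029). The A minus C difference changed sign for 8: Mcm2 (-0.12 to 0.43), Mcm7 (-0.18 to 0.27), E2f1 (-0.70 to 0.40), Aurkb (-0.092 to 0.52), Ccnd1 (-0.28 to 0.057), Ccnd3 (-0.044 to 0.27), Cdk4 (-0.092 to 0.037) and Cdkn1b (-0.32 to 0.18). It kept its sign in the other 33 under the alternatives run. The causes of these shifts were not tested. Alternatives that bear on depth do not apply, since arrays give no counts.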
